A study of Mus musculus with 4 samples.

Results

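The cornified envelope and filaggrin-like genes were followed in single epidermal cells of control and CerS4epi-/- mice. They were chosen by symbol: every gene whose name starts with Lce, together with Lor, Ivl, Evpl, Ppl, Scel, Cnfn, Crct1, Kprp, Flg, Flg2, Hrnr, Rptn, Tchh, Tgm1, Tgm3, Tgm5, Casp14, Asprv1 and Krtap3-2. That made 40 genes of the 32479 listed, 21 of them Lce genes and 19 others. The study asked what loss of ceramide synthase 4 (CerS4), an enzyme that makes ceramides, does to the hair follicle stem cell niche and the skin. Single-cell RNA was measured with the BD Rhapsody microwell system in back skin epidermis of 4 female C57BL/6N mice at postnatal day 19, with 1 sample per mouse. Cells had been labelled with a sample multiplexing kit before loading, and the authors separated the sample tags afterwards. The 2 control mice carried the floxed CerS4 gene without Cre (CerS4 fl/fl K14Cre-), and the 2 CerS4epi-/- mice carried it with Cre (CerS4 fl/fl K14Cre+). The keratin-14 promoter drives Cre in the basal cells of the whole epidermis, so interfollicular epidermis (IFE), hair follicles and sebaceous glands all lose the gene, while immune cells keep it. Both groups carry the floxed allele, and no control with Cre alone was analysed.

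The cornified envelope is the protein shell that a keratinocyte builds under its plasma membrane as it dies to form the outermost layer of the skin. Involucrin, envoplakin and periplakin lay down a scaffold, transglutaminases crosslink loricrin and the small late cornified envelope (LCE) proteins onto it, and ceramides are bound to its outer face. Filaggrin and its relatives are large repeat proteins of keratohyalin granules. They bundle keratin filaments and are then cut by proteases such as caspase-14 into amino acids that hold water. In the IFE these genes are switched on step by step from the spinous to the granular layer, and the infundibulum, the upper part of the hair follicle, has a cornifying lining of its own.

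Of the 40 genes, 30 lie in 1369 kb of chromosome 3 (GRCm39, 91987578 to 93356384), the epidermal differentiation complex. The 21 Lce genes fill the stretch from 92527388 to 92926367, with Kprp and Crct1 between them. Ivl lies before them, and Flg2, Flg, Hrnr, Rptn and Tchh follow. The other 10 genes lie on chromosomes 2 (Tgm5, Tgm3), 6 (Asprv1), 7 (Cnfn), 10 (Casp14), 11 (Krtap3-2, Evpl), 14 (Tgm1, Scel) and 16 (Ppl). Promoters, taken as 250 bases before and 50 bases after the start of a gene in RefSeq (GRCm38.p6), were matched by symbol for 35 of the 40 genes. Evpl, Kprp, Crct1, Lce1f and Ppl had no entry. The AP-1 motif TGACTCA was in 11.1% of the 36 promoters of these genes and in 5.2% of all 32851 promoters, the KLF4 motif GGGTGTG in 13.9% against 7.95%, and the TATA box TATAAA in 30.6% against 13.6%. The GRHL motif AACCNGGTT was in 0% against 0.271%. Both strands were searched, none of these motifs contains another, and a match describes the letters only. AP-1 letters were found at Lor, Ivl, Krtap3-2 and Scel and at none of the 20 Lce promoters. 4 promoters are shown because the results below turn on these genes. Lor had the highest counts of the 40, Flg was called in spinous-like, granular-like and upper follicle-like cells, and Lce1m and Lce1k are members of the same family that behaved differently in the granular layer. Capitals mark AP-1 letters, on either strand, and the TATA box. The Lor promoter is chr3:92083093-92083392, minus strand, the Flg promoter chr3:93273296-93273595, plus strand, the Lce1m promoter chr3:93019012-93019311, minus strand, and the Lce1k promoter, which holds none of the motifs, chr3:92807842-92808141, minus strand.
Lor: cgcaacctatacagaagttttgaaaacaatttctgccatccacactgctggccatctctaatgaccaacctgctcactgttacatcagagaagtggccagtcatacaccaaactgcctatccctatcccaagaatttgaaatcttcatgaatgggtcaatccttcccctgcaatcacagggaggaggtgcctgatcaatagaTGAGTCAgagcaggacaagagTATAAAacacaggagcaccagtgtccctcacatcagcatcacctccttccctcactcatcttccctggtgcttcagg
Flg: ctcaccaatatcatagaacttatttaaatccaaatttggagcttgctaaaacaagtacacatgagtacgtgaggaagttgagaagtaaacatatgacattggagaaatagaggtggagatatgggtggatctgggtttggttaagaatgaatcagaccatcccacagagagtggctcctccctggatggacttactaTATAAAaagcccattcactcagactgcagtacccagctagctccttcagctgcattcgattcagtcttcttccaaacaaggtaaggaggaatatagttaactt
Lce1m: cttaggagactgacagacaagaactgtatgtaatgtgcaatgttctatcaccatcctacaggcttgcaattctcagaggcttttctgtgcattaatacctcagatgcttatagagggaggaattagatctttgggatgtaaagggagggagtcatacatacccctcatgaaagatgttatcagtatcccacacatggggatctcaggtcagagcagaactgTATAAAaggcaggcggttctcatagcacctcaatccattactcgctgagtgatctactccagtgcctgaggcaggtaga
Lce1k: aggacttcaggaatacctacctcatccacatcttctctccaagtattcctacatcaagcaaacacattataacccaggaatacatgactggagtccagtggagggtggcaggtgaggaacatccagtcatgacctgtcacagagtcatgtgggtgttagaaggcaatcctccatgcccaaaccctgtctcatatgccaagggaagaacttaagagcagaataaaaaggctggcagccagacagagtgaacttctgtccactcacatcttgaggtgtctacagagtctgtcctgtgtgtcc

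The 4 samples held 39231945 to 53106317 counts. A barcode was taken as a cell if it had 1200 counts or more, of which no more than 20% were mitochondrial, which left 7567 to 9086 cells per mouse and 34150 in all, with a median of 3266.5 to 3884 counts per cell. The limit on mitochondrial counts removed 68 and 91 barcodes of the control mice and 363 and 316 of the CerS4epi-/- mice, and the median mitochondrial share of the cells kept was 8.66% and 8.56% against 9.94% and 9.68%. With the limit set at 10%, 133 of 148 called values kept their call and 15 lost it. The 2 mice of a genotype shared 0 cell barcodes, where barcodes drawn at random would give 87.1 for the control and 77.1 for the CerS4epi-/- mice. Mice of different genotypes shared 64 to 102, where random draws would give 72.5 to 92.6. Whether the mice of a genotype shared a capture run is not given in the sources used here; such a run and the genotype cannot be told apart. Cers4 itself was low in all kept cells, at 17.4 and 3.37 CPM (counts per 1000000) in the control mice and 4.21 and 7.71 CPM in the CerS4epi-/- mice, so it does not check the labels there (log2 fold change -0.81 ± 0.68 (SE), adjusted p = 0.465). In sebaceous gland-like cells, of which there were 12 and 2 in the controls and 27 and 34 in the CerS4epi-/- mice, it stood at 2832 and 3968 CPM against 289 and 432.3 CPM. Both CerS4epi-/- mice were lower there, but no test was run, since a cluster entered a test only with at least 20 cells in every mouse, and the sources used here do not state which part of the gene is deleted. Which of the 4 mice came from the same litter is not given in the sources used here, and p-values measure only the spread between these mice.

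Cells were clustered without the 40 genes and named from markers that hold none of them. Of the markers of each layer, 9 of 9 were detected in basal-like, 10 of 11 in spinous-like and 14 of 15 in granular-like IFE clusters, and 8 and 10 of 12 in the 2 clusters named upper follicle-like, which are taken as cells of the infundibulum and its junction with the rest of the follicle. Finer clusters were made separately and overlap these classes only in part. The finer spinous-like clusters were numbered by their rising mean level of the keratin gene Krt77, and their granular marker scores rose in the same order. The granular-like ones are called Krt10-high and Krt10-low, and the upper follicle-like ones Slurp1-led, Klk10-led and Defb6-led. The Defb6-led cluster held 572 and 461 cells of the control and 1028 and 868 of the CerS4epi-/- mice, of which 364 and 302 and 585 and 464 lie in the upper follicle-like class. Slurp1 is also a granular marker. The Slurp1-led cluster had a mean marker score of 0.7418 for the upper follicle and 0.4298 for the granular layer. With another random seed of the clustering (Leiden seed 3), a cluster of 723 cells led by 2310046K23Rik, Id4 and Slurp1 scored highest for the granular layer (0.684 against 0.5874). It was left unnamed, so the upper follicle-like class made with that seed did not include it. Values below are CPM, a gene's counts per 1000000 counts of all cells of that cluster in a mouse, and the mouse is the replicate (n = 2 per genotype). Differences between genotypes are log2 fold changes of CerS4epi-/- over control, from edgeR's quasi-likelihood test on counts summed per mouse, with Benjamini-Hochberg adjustment over all genes tested. Their standard error (SE) is not an output of that test. It was derived as the absolute log2 fold change divided by the square root of the test's F value. The test rescales the mice to each other, while CPM are not rescaled, so a fold change can differ from the ratio of the printed CPM. A gene was called at an adjusted p of 0.05 or less. Where values are set against each other, the 2 control mice come first and the 2 CerS4epi-/- mice second, each in the order of replicates 1 and 2. For a single value an exact permutation test over 2 against 2 mice cannot go below p = 0.333.

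Lor, whose product loricrin is the main protein of the mature envelope, rose steeply with differentiation. Its mean over the 4 mice was 179 CPM in the third spinous-like, 1372 CPM in the fourth spinous-like, 24980 CPM in Krt10-high and 71945 CPM in Krt10-low granular-like cells. T cell-like cells, which do not make it, still held 230.3 to 470.2 CPM and Langerhans cell-like cells 139.7 to 199.8 CPM. Lor values of basal-like (143 to 213 CPM) and of the first, the second and the third spinous-like cells thus lay at the level of free RNA and are not read as expression. The same held for Lce1m, with 67.6 to 191 CPM in T cell-like and 62.8 to 156 CPM in basal-like cells. Lce1m, the Lce gene with the most counts, then reached 1359 to 2166 CPM in Krt10-high and 53824 to 63722 CPM in Krt10-low granular-like cells.

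The genes peaked in different clusters. Of the scaffold genes, Ivl came early. It had its highest mean in the fourth spinous-like cells (1121 CPM) and in Krt10-high granular-like cells (1079 CPM) and fell to 174 CPM in Krt10-low cells. Evpl and Scel, the gene of the envelope precursor sciellin, followed it down, to 19.5 and 25.3 CPM in Krt10-low cells from 178 and 117 CPM in Krt10-high cells. Ppl, also of the scaffold, was still counted in 235 of 251 and 297 of 306 Krt10-low cells of the control mice. In the CerS4epi-/- mice it was counted in 240 of 247 and 179 of 186. Hrnr, which encodes the filaggrin relative hornerin, was about as high in both granular-like clusters, with 1143 and 957 CPM. Flg, Flg2, Casp14, Asprv1, Crct1, Kprp and the Lce1 genes had their highest mean in Krt10-low granular-like cells. In these cells the 40 genes together made up 19.7%, 20.5%, 21% and 21.3% of all counts in the control and then the CerS4epi-/- mice, against 3.79%, 4%, 4.84% and 4.58% in Krt10-high cells. Rptn and Tchh stood apart. Rptn, the gene of repetin, had its highest mean in Klk10-led upper follicle-like cells, at 605, 429, 242 and 306 CPM in the 4 mice, and its next highest mean was 17 CPM, in inner bulge-like cells. Tchh, which encodes trichohyalin of the inner root sheath, was at 16.1, 28.8, 6.32 and 7.22 CPM there and at 0 CPM in all 4 mice in Krt10-low granular-like cells. Tgm3 was the only transglutaminase gene higher in basal-like than in granular-like cells, at 29.1 to 58.7 CPM against 1.18 to 2.64 CPM. The clusters were made from genes that change together with these, so the order of levels is a description without a test.

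**Figure D1:**
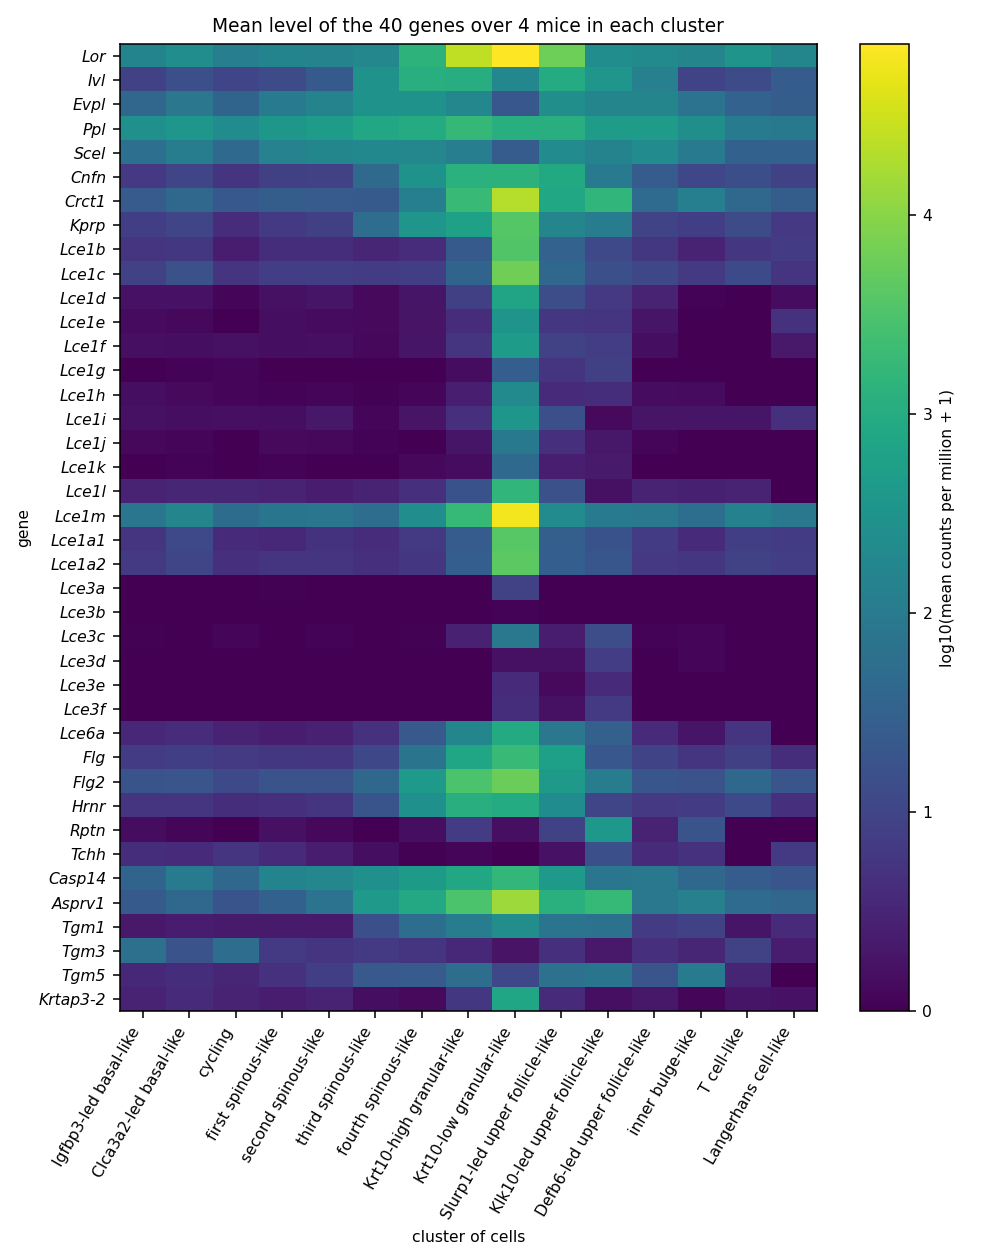
Mean level of each of the 40 genes (rows) over the 4 mice in 15 clusters of cells (columns), as log10 of mean CPM plus 1. Most genes are brightest in Krt10-low granular-like cells, Ivl, Evpl and Scel darken there, Rptn is brightest in Klk10-led upper follicle-like cells, and Lor and Lce1m stay visible in T cell-like cells.

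In granular-like IFE cells, most genes of the envelope were higher in the CerS4epi-/- mice. Of the 40 genes 34 were tested and 24 called, all of them higher, while 16% of all 11006 genes tested were called and 9.44% were called higher. The median log2 fold change was 0.62 over the 34 genes tested and -0.021 over all genes. Among the called genes were 12 of the 16 Lce genes tested and 12 of the 18 others. The class held 717 and 962 cells of the control and 663 and 537 cells of the CerS4epi-/- mice. In clusters made without Harmony, the method that aligns cells of different mice, the class was a single cluster of 186 to 272 cells per mouse, and a cluster of 489 to 970 cells per mouse, led by F3 and Ifitm6, was left unnamed by the marker rule. In that smaller class 117 of all 6997 genes tested were called, among them 9 of the 40, namely Lce1a1, Lce1e, Lce1f, Lce1i, Lce1j, Lce1k, Flg, Hrnr and Casp14. Every Lce1 gene but Lce1m shared reads with its neighbours (below), and with the Lce genes summed as 1 feature 13 were called, which by construction counts fewer genes.

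Among the structural proteins, Lor stood at 36260 and 37458 CPM in control and 43017 and 42623 CPM in CerS4epi-/- mice (log2 fold change 0.33 ± 0.074, adjusted p = 0.012). Both CerS4epi-/- mice lay above both controls. Kprp, which encodes a proline-rich protein of cornifying cells, was at 1508 and 1289 CPM in control and 1902 and 1849 CPM in CerS4epi-/- mice (log2 fold change 0.54 ± 0.082, adjusted p = 0.00154). Cnfn, the gene of the envelope protein cornifelin, was at 1273 and 1087 CPM in control and 1509 and 1348 CPM in CerS4epi-/- mice (log2 fold change 0.39 ± 0.091, adjusted p = 0.0148). Ppl, which encodes the scaffold protein periplakin, was at 1326 and 1488 CPM against 1571 and 1742 CPM (log2 fold change 0.34 ± 0.082, adjusted p = 0.016). In these genes too the groups did not overlap. Ivl, Evpl and Scel, the other genes of the early envelope, were not called. Ivl had 885 and 739.6 CPM in control and 881 and 650.2 CPM in CerS4epi-/- mice, Evpl 114 and 128 CPM against 128 and 138 CPM, and Scel 87.9 and 92.1 CPM against 77.7 and 90.9 CPM. Ivl and Scel overlapped between the genotypes, while both CerS4epi-/- mice were slightly above the controls for Evpl. Crct1, a cysteine-rich gene of the complex, was not called either, at 7910.4 and 7559.5 CPM in control and 8511 and 7784 CPM in CerS4epi-/- mice. Krtap3-2, named for the keratin-associated proteins of hair, was at 225 and 206 CPM in control and 243 and 266 CPM in CerS4epi-/- mice (log2 fold change 0.35 ± 0.076, adjusted p = 0.00959), and its sign turned without Harmony (log2 fold change -0.027).

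Of the filaggrin-like genes, Flg, Hrnr and Flg2 rose. Flg counted 660.4 and 751 CPM in control and 1534 and 1552 CPM in CerS4epi-/- mice (log2 fold change 1.24 ± 0.083, adjusted p = 1.89e-05). Hrnr counted 818 and 874 CPM in control and 1394 and 1263 CPM in CerS4epi-/- mice (log2 fold change 0.76 ± 0.083, adjusted p = 0.000231). Flg2, the filaggrin-2 gene, was at 3229 and 3605 CPM against 4349 and 4345 CPM (log2 fold change 0.46 ± 0.079, adjusted p = 0.00307). All 3 were called with each mouse left out in turn, and both CerS4epi-/- mice were above both controls. Rptn was near its floor in this layer, at 4.29 and 0.202 CPM in control and 6.6 and 3.37 CPM in CerS4epi-/- mice, with overlapping groups and no call, and Tchh, at most 0.168 CPM in any mouse, was not tested.

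Of the genes that process or crosslink these proteins, Casp14, whose caspase cuts filaggrin, stood at 756 and 768 CPM in control and 1495 and 1260.5 CPM in CerS4epi-/- mice (log2 fold change 0.97 ± 0.093, adjusted p = 0.000136). Asprv1, which encodes the retroviral-like protease SASPase that trims profilaggrin, was at 5921 and 5728 CPM in control and 7255 and 6984 CPM in CerS4epi-/- mice (log2 fold change 0.40 ± 0.072, adjusted p = 0.00368). Tgm1, the membrane-bound transglutaminase of the upper layers, was at 139.8 and 125 CPM in control and 186 and 177 CPM in CerS4epi-/- mice (log2 fold change 0.57 ± 0.084, adjusted p = 0.00124). Tgm5 was at 33.8 and 36.7 CPM against 42.6 and 44.6 CPM (log2 fold change 0.41 ± 0.1, adjusted p = 0.0181). In all 4 genes the CerS4epi-/- mice were above the controls, with the widest gap at Casp14. Tgm5 kept its call in 2 of the 4 fits that left out a mouse and had an adjusted p of 0.0916 with DESeq2. Tgm3, at 2.4 and 1.21 CPM in control and 2.64 and 1.18 CPM in CerS4epi-/- mice, overlapped between the groups.

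The 3 Lce genes with the highest mean in this class were Lce1m, Lce1c and Lce1a2. Lce1m was not called, with 19177 and 19254 CPM in control and 19358 and 20078 CPM in CerS4epi-/- mice (log2 fold change 0.15 ± 0.07, adjusted p = 0.187). Lce1c was at 1881 and 1280.3 CPM in control and 2474 and 2528 CPM in CerS4epi-/- mice (log2 fold change 0.78 ± 0.13, adjusted p = 0.00262). Lce1a2 was at 1439 and 884 CPM against 1616 and 1719 CPM (log2 fold change 0.64 ± 0.16, adjusted p = 0.02). In both, control replicate 2 was the lowest mouse and control replicate 1 lay between it and the CerS4epi-/- mice. The same order was found for Lce1b, with 1084 and 657 CPM in control and 1388 and 1371 CPM in CerS4epi-/- mice (log2 fold change 0.78 ± 0.16, adjusted p = 0.00817), and Lce1a1, with 1068 and 688 CPM in control and 1786 and 1696 CPM in CerS4epi-/- mice (log2 fold change 1.10 ± 0.15, adjusted p = 0.000765). Lce6a, which shared no reads with other genes, was at 342 and 345 CPM in control and 523 and 440 CPM in CerS4epi-/- mice (log2 fold change 0.60 ± 0.093, adjusted p = 0.00169), and its 2 control mice differed little.

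The Lce1 genes with fewer counts followed. Lce1k was at 3.92 and 4.44 CPM in control and 20.4 and 31 CPM in CerS4epi-/- mice (log2 fold change 2.69 ± 0.22, adjusted p = 5.27e-05). Lce1j was at 15.9 and 16.6 CPM against 37.4 and 51.7 CPM (log2 fold change 1.55 ± 0.15, adjusted p = 0.000127). In both the control mice lay close together and the CerS4epi-/- mice well above them. Lce1i had 70.8 and 37.6 CPM in control and 164 and 211 CPM in CerS4epi-/- mice (log2 fold change 1.91 ± 0.21, adjusted p = 0.000238). Lce1e was at 79.8 and 31.8 CPM against 151 and 169.9 CPM (log2 fold change 1.66 ± 0.27, adjusted p = 0.00231). Lce1f was at 130.5 and 63.5 CPM against 249 and 199.6 CPM (log2 fold change 1.34 ± 0.24, adjusted p = 0.0034). Lce1h, at 63.9 and 24.2 CPM against 89.8 and 97.4 CPM (log2 fold change 1.22 ± 0.29, adjusted p = 0.015), and Lce1l, at 492 and 291 CPM against 606 and 707 CPM (log2 fold change 0.86 ± 0.17, adjusted p = 0.00708), completed the called Lce genes. Control replicate 2 was again the lowest mouse in these 5, and no group overlapped. Lce1d, at 236 and 70.6 CPM in control and 327 and 285 CPM in CerS4epi-/- mice, did not overlap either, but was not called (adjusted p = 0.0558), and Lce1g, at 12.4 and 0.606 CPM in control and 18 and 6.23 CPM in CerS4epi-/- mice, overlapped. Lce3c, with 19.1 and 31.4 CPM in control and 47 and 19.2 CPM in CerS4epi-/- mice, overlapped as well, and Lce3a, Lce3b, Lce3d, Lce3e and Lce3f were too low to be tested. DESeq2 gave adjusted p-values of 0.122 for Lce1b, 0.222 for Lce1a2, 0.0522 for Lce1e, 0.0689 for Lce1f, 0.231 for Lce1h and 0.109 for Lce1l, so these 6 were not called by that test. Between 12.2% (Lce1l) and 76.1% (Lce1j) of the entries of these Lce1 genes were not whole numbers, because reads were shared between near-identical copies, whereas this was 0.012% for Lce1m and 0% for Lce6a. The split of counts between the Lce1 copies is therefore uncertain.

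**Figure D2:**
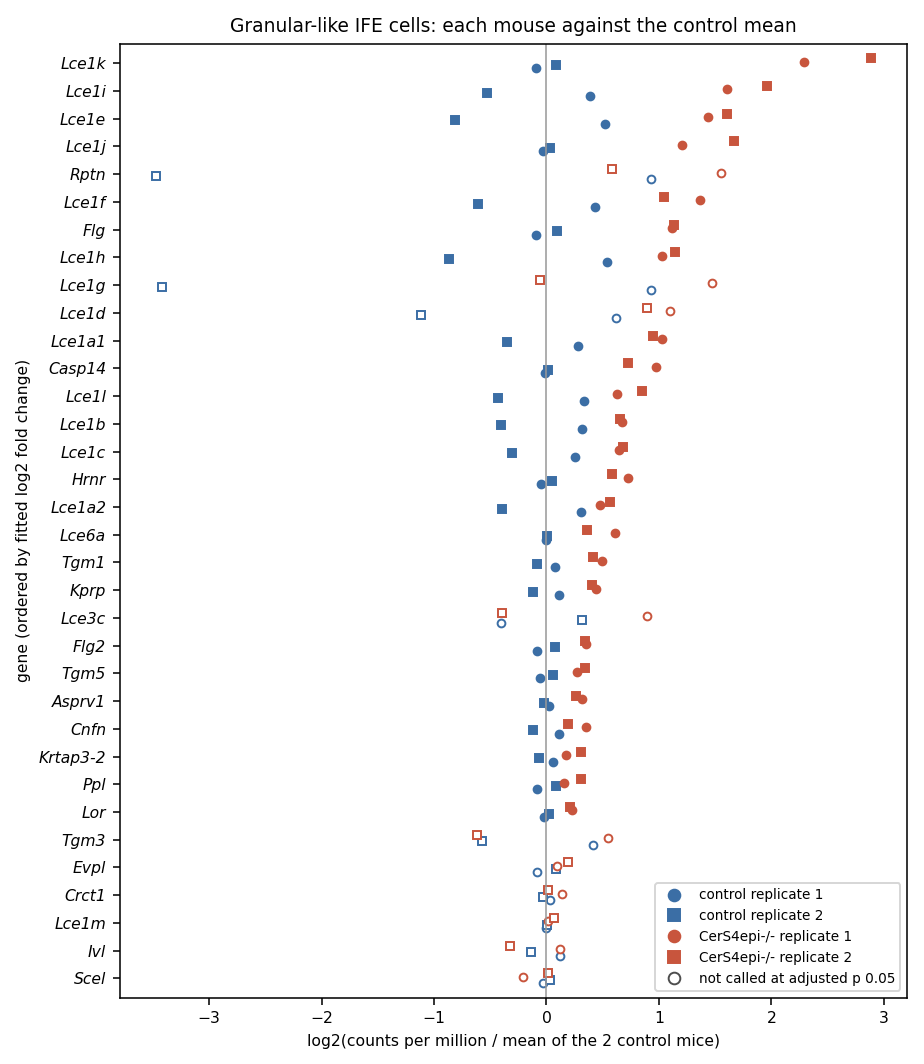
Level of the 34 genes tested in granular-like IFE cells, each mouse shown as log2 of its CPM over the mean of the 2 control mice, with genes ordered by fitted log2 fold change. For the 24 called genes (filled symbols) both CerS4epi-/- mice lie right of both control mice, and control replicate 2 is the lowest in most of the Lce1 genes.

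Different genes were called in the 2 granular-like clusters, but the clusters were not tested against each other. In Krt10-high cells 31 genes were tested and 14 called, 11 higher and 3 lower, against 11.9% of all genes tested. The 11 were Lor, Flg, Flg2, Hrnr, Asprv1, Cnfn, Casp14, Tgm1, Tgm5, Ppl and Evpl. Flg reached 388 and 451 CPM in control and 1020.2 and 1127 CPM in CerS4epi-/- mice (log2 fold change 1.41 ± 0.088, adjusted p = 1.65e-05). The 3 that were lower were all Lce genes. Lce6a was at 188 and 191 CPM in control and 154 and 131 CPM in CerS4epi-/- mice (log2 fold change -0.34 ± 0.094, adjusted p = 0.0401). Lce1m was at 1973 and 2166 CPM against 1663 and 1359 CPM (log2 fold change -0.39 ± 0.1, adjusted p = 0.0275). Lce1a2 was at 40.4 and 28.6 CPM against 22.1 and 20.3 CPM (log2 fold change -0.62 ± 0.17, adjusted p = 0.0386). Both CerS4epi-/- mice were below both controls in these.

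In Krt10-low cells 32 genes were tested and 18 called, against 5.75% of all genes tested (3.77% of all tested higher and 1.98% lower). The 16 that were higher were Flg, Hrnr, Casp14, Tgm1, Kprp and 11 Lce genes: Lce1a1, Lce1b, Lce1c, Lce1e, Lce1f, Lce1h, Lce1i, Lce1j, Lce1k, Lce1l and Lce6a. Lce6a, lower in the Krt10-high cells, was here at 681 and 743 CPM in control and 1239.6 and 1050.2 CPM in CerS4epi-/- mice (log2 fold change 0.84 ± 0.14, adjusted p = 0.00622). Lor, at 68582 and 74078 CPM in control and 71787 and 73334 CPM in CerS4epi-/- mice, and Lce1m, at 57325 and 63722 CPM against 53824 and 57339 CPM, were not called. The 2 genes that were lower were Ivl and Scel. Ivl had 298 and 183 CPM in control and 124 and 90.4 CPM in CerS4epi-/- mice (log2 fold change -0.98 ± 0.21, adjusted p = 0.0196). Scel had 37.8 and 32.1 CPM against 16.3 and 15.1 CPM (log2 fold change -0.99 ± 0.22, adjusted p = 0.0235). For both genes, the 2 CerS4epi-/- mice were below the controls. Krt10, the keratin gene after which the cluster is named, was at 3688 and 2935 CPM in the control and 1300 and 1906 CPM in the CerS4epi-/- mice of this cluster, and its part in these results was not tested.

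The Lce1 transcripts were not spread evenly over the Krt10-low cells. In each mouse, the tenth of these cells with the most counts of a gene held 13.2% to 14.9% of the Lor counts and 17.5% to 19.7% of the Lce1m counts, but 53.9% to 74.1% of the Lce1a1 counts and at least 95.7% of the counts of Lce1d, Lce1e, Lce1g, Lce1h, Lce1i, Lce1j and Lce1k. Cells with at least 100 counts of Lce1a1, Lce1a2, Lce1b and Lce1c together numbered 63 of 251 and 60 of 306 in the control mice (25.1% and 19.6%) and 85 of 247 and 57 of 186 in the CerS4epi-/- mice (34.4% and 30.7%). Both CerS4epi-/- mice had the higher share. Their Krt10-low cells were also deeper, at a median of 11580 and 10700 counts against 9853 and 9156 in the controls. The share was not computed at equal depth. In these Lce1-rich cells the median Krt10 count was 3, 3, 2 and 2 in the 4 mice, against 10, 10.5, 9 and 8 in the remaining Krt10-low cells, at similar depth. The median number of Lce genes detected per Krt10-low cell was 3 and 3 in the control and 5 and 4 in the CerS4epi-/- mice, and 2, 2, 3 and 2 after thinning each cell to 1200 counts. Krt10-low cells made up 35% and 31.8% of the granular-like cells of the controls and 36.7% and 34.5% of those of the CerS4epi-/- mice. By number of cells these shares overlapped. In counts, the whole Krt10-low cluster held 2459378 and 2744605 in the control and 2827589 and 1990185 in the CerS4epi-/- mice. The whole Krt10-high cluster held 5514151 and 7240939 against 5579134 and 3991017. The part of this mix in the results of the class was not tested.

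In spinous-like IFE cells 27 genes were tested and 11 called, 7 higher and 4 lower, against 7.36% of all genes tested (4.19% of all tested higher and 3.17% lower). Without CerS4epi-/- replicate 1 the number was 4, without control replicate 1 it was 6, and in clusters made without Harmony it was 3. Flg was at 10.8 and 11.8 CPM in control and 37.8 and 41.2 CPM in CerS4epi-/- mice (log2 fold change 1.79 ± 0.1, adjusted p = 0.000164). Hrnr was at 41.2 and 57.2 CPM in control and 91.3 and 92.6 CPM in CerS4epi-/- mice (log2 fold change 0.89 ± 0.13, adjusted p = 0.00614). Cnfn was at 62.5 and 71.5 CPM against 109 and 116 CPM (log2 fold change 0.73 ± 0.083, adjusted p = 0.00179). The CerS4epi-/- mice were both above both controls in these, as in Tgm1, with 15.6 and 13.2 CPM in control and 21.1 and 21.9 CPM in CerS4epi-/- mice (log2 fold change 0.57 ± 0.12, adjusted p = 0.0205). Casp14 had 239 and 229 CPM against 296 and 287 CPM (log2 fold change 0.30 ± 0.069, adjusted p = 0.0316). Lor had 357 and 425 CPM against 585 and 531 CPM (log2 fold change 0.50 ± 0.099, adjusted p = 0.018). Lor lay partly within the range of T cell-like cells here, and had a log2 fold change of -0.15 without Harmony. Lce1i, at 0.323 and 0.237 CPM against 0.957 and 1.31 CPM (log2 fold change 1.95 ± 0.49, adjusted p = 0.0451), was near its floor.

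The 4 genes lower in spinous-like cells were Lce1m, Kprp, Lce6a and Crct1. Lce1m had 119 and 151 CPM in control and 79.3 and 82.5 CPM in CerS4epi-/- mice (log2 fold change -0.75 ± 0.11, adjusted p = 0.00521). Kprp had 106 and 116 CPM against 73.8 and 84.4 CPM (log2 fold change -0.51 ± 0.084, adjusted p = 0.00904). Lce6a had 10.5 and 8.77 CPM against 4.24 and 6.35 CPM (log2 fold change -0.90 ± 0.2, adjusted p = 0.0308). Crct1 had 55.1 and 59.1 CPM against 46.1 and 46.6 CPM (log2 fold change -0.31 ± 0.081, adjusted p = 0.0496). Lce1m and Crct1 lay at the level found in T cell-like cells (67.6 to 191 and 12.3 to 62.7 CPM), and Crct1 lost its call without the cell of each mouse that had the most counts of it (adjusted p = 0.0754). Without Harmony 3 genes were called in this class, namely Flg, Crct1 and Lce1m.

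Among the finer spinous-like clusters most calls were in the third and the fourth. In the fourth spinous-like cells 9 genes of 23 tested were called, against 3.96% of all genes tested, 7 of them higher (Lor, Flg, Hrnr, Cnfn, Casp14, Evpl and Tgm1) and 2 lower (Lce6a and Lce1m). Flg was at 28.9 and 28.8 CPM in control and 105 and 124 CPM in CerS4epi-/- mice (log2 fold change 2.00 ± 0.13, adjusted p = 3.22e-05). Lor, now above the free RNA level, was at 849 and 1115 CPM against 1921 and 1602 CPM (log2 fold change 0.86 ± 0.13, adjusted p = 0.00377). Hrnr had 143 and 208 CPM in control and 373 and 376 CPM in CerS4epi-/- mice (log2 fold change 1.11 ± 0.15, adjusted p = 0.00188). The groups did not overlap in any of the 3. In the third spinous-like cells 5 of 22 genes tested were called, against 3.84% of all genes tested, with Flg, Hrnr, Cnfn and Casp14 higher and Lce1m lower. Flg, at 3.96 and 4.87 CPM in control and 14 and 17.6 CPM in CerS4epi-/- mice, and Hrnr, at 6.25 and 12.5 CPM against 24.6 and 25.6 CPM, lay within the range of T cell-like cells (0 to 20.5 and 0 to 30.4 CPM). Casp14 lay above it, at 253 and 217 CPM in control and 307 and 320.2 CPM in CerS4epi-/- mice (log2 fold change 0.41 ± 0.091, adjusted p = 0.0241), against 6.82 to 46.1 CPM in T cell-like cells.

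In basal-like IFE cells 1 of 25 genes tested was called, against 4.1% of all genes tested. It was Tgm3, with 37.1 and 29.1 CPM in control and 58.7 and 53.6 CPM in CerS4epi-/- mice (log2 fold change 0.82 ± 0.12, adjusted p = 0.0085). The CerS4epi-/- mice both lay above both controls, and the call held with each mouse left out. Among the other 24 genes, Lor and Lce1m were at or near the level of T cell-like cells, and counts were low for Flg (4.61 to 8.11 CPM) and Hrnr (3.79 to 5.72 CPM). Of the finer clusters, the Igfbp3-led basal-like cells had 1 of 24 genes called, again Tgm3, against 4.26% of all genes tested. The Clca3a2-led basal-like cells had 4 of 20 genes called, all lower, against 4.53% of all genes tested: Lor, Crct1, Lce1m and Lce1a2. Lor (162 to 299.8 CPM) reached no higher than in T cell-like cells and Crct1 (18.4 to 69.4 CPM) little higher, and Lor and Lce1a2 lost the call without their top cells.

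In upper follicle-like cells the genes moved in both directions. Of 33 tested 14 were called, 7 higher and 7 lower, against 12.7% of all genes tested (7.74% of all tested higher and 4.94% lower). The median log2 fold change of the genes tested was -0.06, and that of all genes 0.003. Flg differed most among the genes with counts in every mouse, at 65.1 and 86.1 CPM in control and 339 and 301 CPM in CerS4epi-/- mice (log2 fold change 2.19 ± 0.13, adjusted p = 5.59e-06). Casp14 followed, with 136 and 167 CPM in control and 267 and 229 CPM in CerS4epi-/- mice (log2 fold change 0.81 ± 0.12, adjusted p = 0.0015), and Asprv1 was at 825 and 739 CPM against 1234 and 1538 CPM (log2 fold change 0.92 ± 0.13, adjusted p = 0.00104). Tgm5 had 33.9 and 46.7 CPM in control and 72.5 and 78.8 CPM in CerS4epi-/- mice (log2 fold change 1.02 ± 0.15, adjusted p = 0.00137). Tgm1 was at 42.9 and 32.5 CPM against 56.6 and 60.7 CPM (log2 fold change 0.71 ± 0.15, adjusted p = 0.00958). In these 5 genes, which encode filaggrin, 2 proteases and 2 transglutaminases, both CerS4epi-/- mice were above both controls.

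Genes that were lower in upper follicle-like cells were mostly higher in granular-like cells of the same mice. Lce6a stood at 60.2 and 64.1 CPM in control and 29.4 and 32.3 CPM in CerS4epi-/- mice (log2 fold change -0.92 ± 0.13, adjusted p = 0.00101). Kprp was at 123 and 111 CPM against 76.3 and 85.3 CPM (log2 fold change -0.44 ± 0.11, adjusted p = 0.029). Lce1i had 10.7 and 12.8 CPM in control and 2.13 and 2.96 CPM in CerS4epi-/- mice (log2 fold change -2.12 ± 0.32, adjusted p = 0.00171). Lce1l was at 12.5 and 11.9 CPM against 2.59 and 4.34 CPM (log2 fold change -1.75 ± 0.32, adjusted p = 0.00481). The CerS4epi-/- mice were both the lowest in all 4. Cnfn was at 535 and 461 CPM in control and 335 and 329.7 CPM in CerS4epi-/- mice (log2 fold change -0.49 ± 0.1, adjusted p = 0.0112). Ppl was at 883 and 862 CPM against 623 and 642 CPM (log2 fold change -0.37 ± 0.096, adjusted p = 0.029). Lce1g was at 6.23 and 4.12 CPM against 1.67 and 1.97 CPM (log2 fold change -1.44 ± 0.41, adjusted p = 0.0441). Ppl and Lce1g lost their call with each mouse left out, and Lce1g also without its top cells (adjusted p = 0.132). Several genes not called here were still lower in both CerS4epi-/- mice. They were Lor (3025 and 3221 CPM against 2344 and 2375 CPM), Flg2 (224 and 238 against 183 and 191), Hrnr (117 and 85.7 against 83.6 and 75.1), Ivl (658 and 559 against 508 and 408), Scel (211 and 221 against 188 and 194) and Tchh (4.5 and 4.12 against 3.05 and 3.55). Evpl (187 and 196 CPM against 201 and 211 CPM) was higher in both. Crct1 (633 to 893 CPM), Rptn (56.8 to 139 CPM) and Lce1m (119.5 to 175 CPM) overlapped.

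The mix of clusters inside this class differed between the genotypes. Klk10-led cells made up 17.8% and 12.2% of it in the control mice and 30.6% and 37.1% in the CerS4epi-/- mice, and Slurp1-led cells 42.3% and 44.6% against 28.2% and 25.6%. Neither share overlapped. With the 3 whole clusters weighted equally, cells outside the class included, Flg (48 and 57.6 CPM against 314.5 and 346 CPM), Casp14, Asprv1, Tgm5 and Tgm1 stayed higher and Lce6a, Kprp, Lce1i, Lce1l, Lce1g and Ppl lower in both CerS4epi-/- mice, but Cnfn, at 359.7 and 292 CPM against 340.2 and 348 CPM, overlapped. Of the genes not called, Lor (2080 and 2052 CPM against 2131 and 2629 CPM) and Hrnr (86.5 and 57.6 CPM against 88.2 and 92.5 CPM) were then higher in both CerS4epi-/- mice. Flg2 and Ivl then overlapped, and Scel and Tchh stayed lower.

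In Slurp1-led cells 6 of 26 genes tested were called, against 3.07% of all genes tested. Flg was at 133 and 156 CPM in control and 911 and 986 CPM in CerS4epi-/- mice (log2 fold change 2.75 ± 0.12, adjusted p = 3.13e-09). Casp14 was at 231 and 258 CPM against 565 and 592 CPM (log2 fold change 1.27 ± 0.11, adjusted p = 1.41e-05). Flg counts were found in 9.45% and 10.6% of these cells in the control mice and in 25.5% and 24.9% in the CerS4epi-/- mice, and in 5.75%, 6.97%, 17.9% and 19.1% after thinning each cell to 1200 counts. T cell-like cells, at a median of 1520 to 1887 counts against 2862 to 4352 in Slurp1-led cells, had a Flg count in 0% to 4.32% of cells. The CerS4epi-/- mice were thus higher by the share of cells and by CPM. The 4 genes that were lower were Lce6a, Kprp, Lce1i and Lce1l. Lce6a had 109 and 102 CPM in control and 60.5 and 65.1 CPM in CerS4epi-/- mice (log2 fold change -0.72 ± 0.14, adjusted p = 0.0124). Kprp had 187 and 193 CPM against 119 and 134 CPM (log2 fold change -0.57 ± 0.12, adjusted p = 0.0226). Lce1i, at 21.1 and 21.3 CPM in control and 6.63 and 7.09 CPM in CerS4epi-/- mice, and Lce1l, at 23.8 and 19.8 CPM against 7.22 and 9.6 CPM, lost their call without the top cell of each mouse (adjusted p = 0.181 and 0.0827).

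In Klk10-led cells 13 of 25 genes tested were called, 10 higher and 3 lower, against 8.29% of all genes tested (5.02% of all tested higher and 3.27% lower). The control mice had only 162 and 85 of these cells, the CerS4epi-/- mice 439 and 463, and median depth was 2513 and 2694 against 4175 and 3954 counts. Krt10 was at 6923 and 8174 CPM in the control and 1453 and 1232 CPM in the CerS4epi-/- mice of this cluster, and its part in the results was not tested. Cnfn was at 26.1 and 32.4 CPM in control and 189 and 151 CPM in CerS4epi-/- mice (log2 fold change 2.73 ± 0.25, adjusted p = 4.84e-05), with counts in 4 and 6 control cells and 62 and 74 CerS4epi-/- cells. Asprv1 was at 1386 and 1174 CPM in control and 2133 and 2464 CPM in CerS4epi-/- mice (log2 fold change 0.99 ± 0.13, adjusted p = 0.00069). Tgm5 was at 54.2 and 36 CPM against 98.6 and 116 CPM (log2 fold change 1.33 ± 0.24, adjusted p = 0.00472). Ivl was at 251 and 274 CPM against 468 and 352 CPM (log2 fold change 0.81 ± 0.17, adjusted p = 0.0103). Casp14 had 58.2 and 57.6 CPM against 112 and 94.3 CPM (log2 fold change 0.98 ± 0.21, adjusted p = 0.0132). All 5 kept the call without the top cell of each mouse, and the groups did not overlap.

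The remaining 8 calls in Klk10-led cells depended on single cells. Flg (8.03 and 7.2 CPM in control and 22.8 and 40.6 CPM in CerS4epi-/- mice), Lor, Crct1, Rptn, Lce1a1 and Lce1a2 lost the call, or for Lce1a2 could not be tested, without the cell of each mouse that had the most counts. For Crct1, at 1906 and 1894 CPM in control and 1103 and 1314 CPM in CerS4epi-/- mice, that cell held 37.7% and 35.4% of the counts in the controls and 15.8% and 10.3% in the CerS4epi-/- mice, and without it the log2 fold change was -0.038. Rptn was at 605 and 429 CPM in control and 242 and 306 CPM in CerS4epi-/- mice (log2 fold change -0.79 ± 0.18, adjusted p = 0.0163), with an adjusted p of 0.148 without its top cells. Lce3c and Lce3d were at 0 in both controls. In CerS4epi-/- replicate 1 all 77.9 counts of Lce3c and all 36.4 counts of Lce3d came from 1 of the 439 cells, and in replicate 2 single cells held 38.2 of 40.5 and 23.9 of 24.2 counts. Over the whole upper follicle-like class the CerS4epi-/- level of Lce3c was at least 18.4-fold and that of Lce3d at least 9.44-fold higher than the limit of 3 counts over both control mice allows. These bounds cover counting error only and rest mostly on those cells: without the top cell of each mouse neither gene could be tested. Lce3e and Lce3f, not tested, also came almost wholly from 1 cell of replicate 1, with 25.5 and 54.2 counts. In Krt10-low granular-like cells, by contrast, Lce3c was counted in 40 of 251 and 62 of 306 control cells and in 80 of 247 and 34 of 186 CerS4epi-/- cells. Lce3a consisted of 90.4 counts in 1 such cell of control replicate 2 and hardly any elsewhere, and Lce3b of 1.2 counts in 2 cells.

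**Figure D3:**
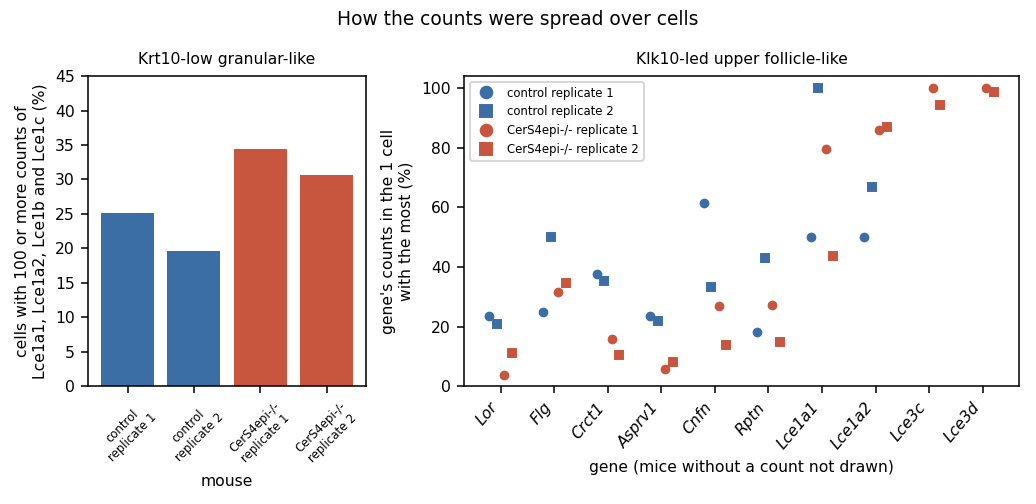
Left, share of Krt10-low granular-like cells with at least 100 counts of 4 Lce1 genes in each mouse, 25.1% and 19.6% in the controls and 34.4% and 30.7% in the CerS4epi-/- mice. These cells were not thinned to equal depth. Right, share of a gene's counts in Klk10-led upper follicle-like cells that the 1 cell with the most counts held, for 10 genes and each mouse with any count; Lce3c and Lce3d stand near 100%.

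In Defb6-led cells 3 of 20 genes tested were called, against 4.9% of all genes tested. Ivl was at 168 and 153 CPM in control and 106 and 95.9 CPM in CerS4epi-/- mice (log2 fold change -0.63 ± 0.12, adjusted p = 0.00747). Cnfn was at 31.9 and 36.4 CPM against 11.8 and 18.7 CPM (log2 fold change -1.14 ± 0.25, adjusted p = 0.0174), both lower in the CerS4epi-/- mice, and Asprv1 at 65.2 and 65.1 CPM against 89.8 and 134 CPM (log2 fold change 0.80 ± 0.18, adjusted p = 0.0244). Ivl and Cnfn thus pointed opposite ways in the Defb6-led and Klk10-led clusters; this difference was not tested.

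**Figure D4:**
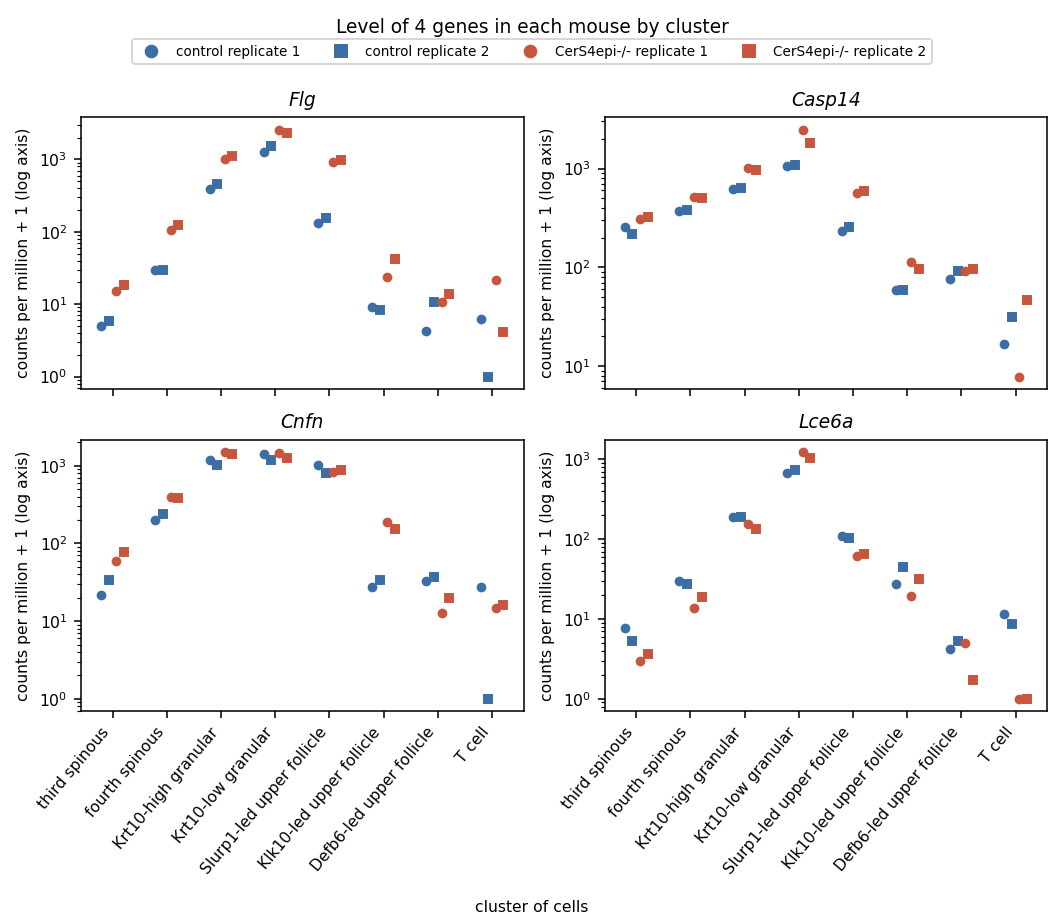
CPM plus 1 (log axis) of Flg, Casp14, Cnfn and Lce6a in each mouse by cluster, circles and squares for replicates 1 and 2, controls in blue and CerS4epi-/- mice in red, T cell-like cells as the free RNA level. Flg and Casp14 are higher in both CerS4epi-/- mice from the fourth spinous-like to the Klk10-led cells, Cnfn only in some of these clusters, and Lce6a is higher in Krt10-low and lower in Krt10-high granular-like and Slurp1-led cells.

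Whether the genotype difference itself differed between granular-like IFE and upper follicle-like cells was tested in 1 fit over both classes with the mouse as a term. Of 38 genes tested 19 were called, against 8.05% of all genes tested. For 16 of them the difference was more positive in granular-like cells, and for Flg, Tgm5 and Lce3c it was more positive in upper follicle-like cells. The gap in log2 fold change was 1.56 ± 0.18 (adjusted p = 2.36e-05) for Lce6a, 4.02 ± 0.37 (adjusted p = 3.22e-06) for Lce1i and 2.63 ± 0.32 (adjusted p = 5.27e-05) for Lce1l. It was 1.01 ± 0.16 (adjusted p = 0.000479) for Kprp, 0.91 ± 0.14 (adjusted p = 0.000464) for Cnfn and 1.07 ± 0.18 (adjusted p = 0.000952) for Hrnr. For Flg it was -0.91 ± 0.15 (adjusted p = 0.000673), the rise in the follicle being the larger. Casp14, at 0.19 (adjusted p = 0.519), and Tgm1, at -0.11 (adjusted p = 0.772), were higher in both classes with no gap called. The test was called for 8 genes in clusters made with another random seed and for 8 without Harmony, Lce6a, Lce1i, Lce1l, Kprp and Flg among the latter, and Lce1a1, Lce1d and Lce1l changed sign with that seed, and the upper follicle-like side of it moves with the mix of clusters given above. With equal weights of the clusters, Hrnr and Lor were higher on the upper follicle-like side in both CerS4epi-/- mice, and Cnfn overlapped.

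**Figure D5:**
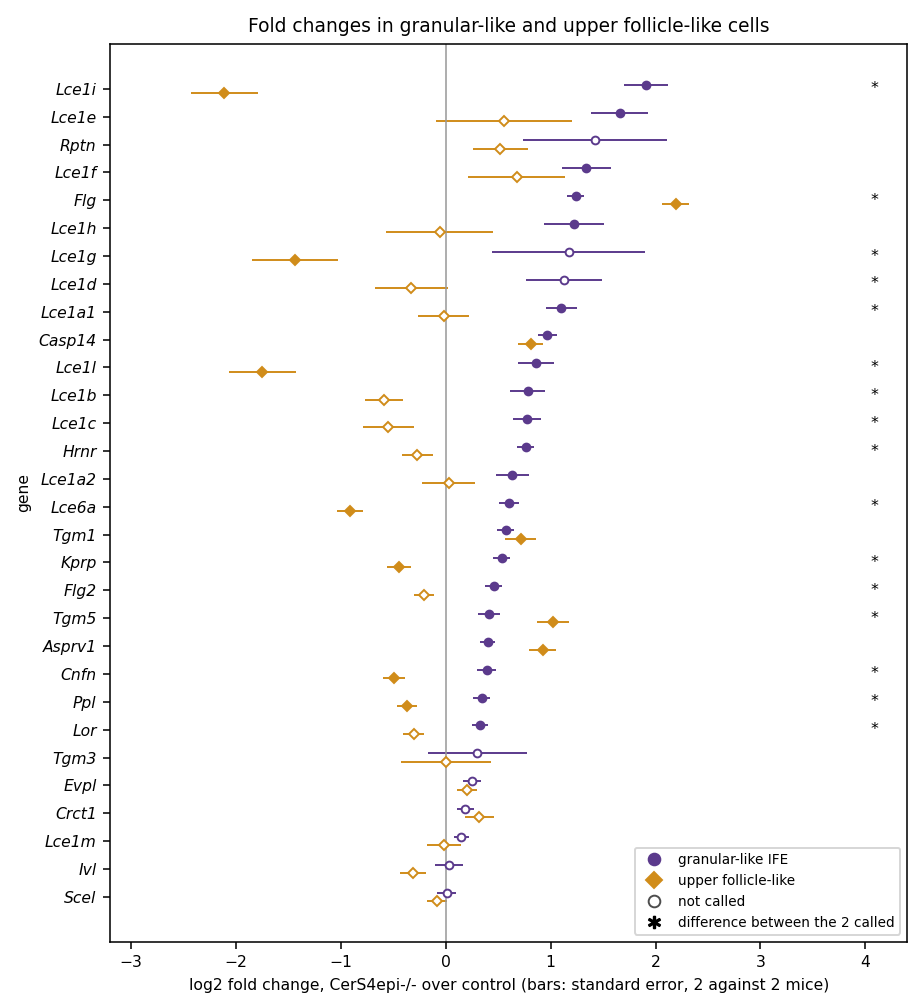
Log2 fold change of CerS4epi-/- over control (bars, SE; 2 against 2 mice) in granular-like IFE (circles) and upper follicle-like cells (diamonds) for the genes tested in both except Lce3c; filled symbols were called, and stars mark a called difference between the classes. Flg, Casp14, Tgm1, Tgm5 and Asprv1 are filled right of 0 in both, while Lce6a, Kprp, Lce1i, Lce1l, Cnfn and Ppl lie on opposite sides.

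Over all kept cells, where the mix of layers also counts, 38 genes were tested and 10 called, all higher, against 14.3% of all genes tested and 8.18% called higher. The number was 21 without control replicate 1, 19 without a filter on low counts and 23 with a 10% mitochondrial limit. They were Flg, Casp14, Tgm1, Tgm5, Lce1a1, Lce1e, Lce1i, Lce1j, Lce1k and Lce3d, the last of which could not be tested without its top cells. Flg was at 141 and 184 CPM in control and 327 and 321 CPM in CerS4epi-/- mice (log2 fold change 0.99 ± 0.13, adjusted p = 0.00809). Casp14 was at 268 and 293 CPM against 406 and 349 CPM (log2 fold change 0.43 ± 0.1, adjusted p = 0.0388). Lor, at 7566 and 9017 CPM in control and 8035 and 7796 CPM in CerS4epi-/- mice, and Lce1m, at 3871 and 4544 CPM against 3432 and 3486 CPM, were not called, and the 40 genes together held 1.92%, 2.17%, 2.03% and 1.97% of all counts. Their total thus overlapped between the genotypes. Only Lce3a and Lce3b were too low to be tested here.

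In inner bulge-like cells, which lie deeper in the follicle, 5 of 11 genes tested were called, all lower, against 13.3% of all genes tested. The cluster held 122 and 97 cells of the control and 246 and 291 of the CerS4epi-/- mice, of which 78 and 64 against 72 and 77 had no more than 10% mitochondrial counts. In clusters made without Harmony the inner bulge-like cluster held 96 and 77 against 36 and 40 cells, and the cluster led by Klk10 219 and 103 against 762 and 876; inner bulge-like calls were not recomputed there. Tgm5 was at 163 and 125 CPM in control and 61.6 and 27.2 CPM in CerS4epi-/- mice (log2 fold change -1.69 ± 0.31, adjusted p = 0.00156). Ppl was at 355 and 351 CPM against 178 and 156 CPM (log2 fold change -1.03 ± 0.18, adjusted p = 0.0012). For Tgm5 this is the opposite of the upper follicle-like cells; the difference was not tested. Asprv1 was at 155 and 194 CPM in control and 71.4 and 106 CPM in CerS4epi-/- mice (log2 fold change -0.91 ± 0.24, adjusted p = 0.0184), while Lor, at its free RNA level, and Rptn lost the call or could not be tested without their top cells.

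Genes that work with the 40 were taken from lists drawn up by function, with earlier results of these data known. Their counts are therefore a description and not independent evidence. Their counts in granular-like cells stand beside 16% of all genes called and 9.44% called higher. Of 24 partner structural proteins tested in granular-like cells, which include small proline-rich proteins, keratins and desmosomal proteins, 6 were higher and 4 lower. Sprr2h, a small proline-rich gene, was at 19.6 and 33.7 CPM against 85 and 73.5 CPM (log2 fold change 1.67 ± 0.19, adjusted p = 0.000322), and S100a11 fell, at 409 and 387 CPM against 199 and 203 CPM (log2 fold change -0.87 ± 0.071, adjusted p = 4.95e-05). Of 23 genes that process or control envelope proteins, 15 were higher and 1 lower, with a median log2 fold change of 0.29 against -0.021 over all genes. Serpinb12, a protease inhibitor, was at 20.1 and 26.5 CPM against 93.8 and 98.1 CPM (log2 fold change 2.14 ± 0.12, adjusted p = 5.95e-06). Dnase1l2, which degrades nuclear DNA in cornifying cells, was at 121 and 128 CPM against 232 and 217 CPM (log2 fold change 0.97 ± 0.083, adjusted p = 6.69e-05).

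Of 20 genes of the lipid envelope tested in granular-like cells, 9 were higher and 1 lower. Lipk, an acid lipase of the granular layer, was at 88.3 and 84.3 CPM against 163 and 151 CPM (log2 fold change 0.98 ± 0.084, adjusted p = 6.69e-05). Sptlc3, a subunit of the enzyme that starts sphingolipid synthesis, was at 158 and 160.5 CPM against 91.1 and 80.8 CPM (log2 fold change -0.77 ± 0.09, adjusted p = 0.000344). Of 22 transcription factors of terminal differentiation, 9 were higher and 1 lower; Prdm1 was at 286 and 295 CPM against 456 and 442 CPM (log2 fold change 0.74 ± 0.074, adjusted p = 0.000162). Ovol1 was at 297 and 283 CPM against 407 and 402 CPM (log2 fold change 0.59 ± 0.071, adjusted p = 0.000402). S100a6, a small calcium-binding protein like S100a11, was at 24.8 and 20.6 CPM against 28.8 and 48.3 CPM (log2 fold change 0.85 ± 0.19, adjusted p = 0.0121). The protease gene Capn1 was at 75.5 and 71.4 CPM against 36.8 and 37.9 CPM (log2 fold change -0.86 ± 0.092, adjusted p = 0.000218). Slc27a4, a fatty acid transporter, was at 119 and 102 CPM against 165 and 144 CPM (log2 fold change 0.60 ± 0.1, adjusted p = 0.00247). Trp63, the p63 regulator of the epidermal lineage, was at 16.7 and 17.6 CPM against 12 and 9.59 CPM (log2 fold change -0.54 ± 0.17, adjusted p = 0.0496). Several list genes are also markers that named granular-like or other clusters. This holds for 6 of the partner, 5 of the processing, 6 of the lipid and 1 of the transcription factor list.

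In upper follicle-like cells, where 12.7% of all genes tested were called, the lists held genes called in both directions. Of 24 processing genes tested 10 were higher and 0 lower. Klk6, a kallikrein protease, was at 30.8 and 19.7 CPM against 468 and 707 CPM (log2 fold change 4.60 ± 0.24, adjusted p = 3.1e-06). Padi4, a deiminase that can citrullinate filaggrin-type proteins, was at 4.85 and 1.83 CPM against 21.9 and 30.5 CPM (log2 fold change 2.96 ± 0.35, adjusted p = 0.000344). Ctsl, the protease cathepsin L, was at 130.2 and 107 CPM against 392 and 516 CPM (log2 fold change 2.03 ± 0.15, adjusted p = 2.13e-05). Of 23 partner structural proteins 3 were higher and 7 lower, of 21 lipid genes 3 higher and 3 lower, and of 22 transcription factors 1 higher and 4 lower. Sprr4 was at 49.5 and 24.3 CPM against 152 and 185 CPM (log2 fold change 2.24 ± 0.23, adjusted p = 0.000138). Sdr9c7, a dehydrogenase of the lipid envelope, was at 144 and 138 CPM against 73.7 and 74.3 CPM (log2 fold change -0.84 ± 0.1, adjusted p = 0.000437). Rora, a nuclear receptor, was at 284 and 278 CPM against 156 and 140.3 CPM (log2 fold change -0.83 ± 0.099, adjusted p = 0.000386).

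Among the other genes called in upper follicle-like cells, S100a6 was at 79.6 and 76.9 CPM against 231 and 264 CPM (log2 fold change 1.76 ± 0.12, adjusted p = 9.99e-06). Sprr1a was at 8326 and 5579 CPM against 12090 and 15830 CPM (log2 fold change 1.10 ± 0.19, adjusted p = 0.00415). Degs2, a ceramide hydroxylase, was at 13.2 and 11.4 CPM against 39.7 and 75.3 CPM (log2 fold change 2.29 ± 0.33, adjusted p = 0.0014). Ugcg, which makes glucosylceramide, was at 54 and 44 CPM against 62 and 89.7 CPM (log2 fold change 0.71 ± 0.19, adjusted p = 0.0336). The transcription factor gene Gata3 was at 278 and 338 CPM against 188 and 164 CPM (log2 fold change -0.71 ± 0.12, adjusted p = 0.00268). Klk6 and Sprr4 are themselves among the 10 leading genes of the Klk10-led cluster, whose share was larger in the CerS4epi-/- mice.

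In basal-like and spinous-like cells, where 4.1% and 7.36% of all genes tested were called, 2 and 4 processing genes, 6 and 4 transcription factors, 0 and 1 lipid genes and 1 and 1 partner proteins were higher, and 1 and 1, 4 and 2, 1 and 1, and 1 and 0 lower. Ovol1 was higher in both, at 75.8 and 79.6 CPM against 158 and 167 CPM and at 248 and 196 CPM against 426 and 456 CPM. Klk6 was at 0.102 and 0.0915 CPM against 1.54 and 1.46 CPM in basal-like and at 0.646 and 0.237 CPM against 2.46 and 2.52 CPM in spinous-like cells. Sptlc3 was at 55.9 and 59.8 CPM against 39 and 35.8 CPM and at 309.5 and 328 CPM against 214 and 222 CPM, in the same order. The other list genes named by the rule were called in 1 of these classes. In basal-like cells Sprr1a was at 25.5 and 22.4 CPM against 72.9 and 63.3 CPM. Krt77, a keratin, was at 1777 and 2068 CPM against 1296 and 773 CPM. The protease inhibitor Cst6 was at 32.6 and 40.5 CPM against 80.7 and 81.2 CPM. Ctsl was at 119 and 129 CPM against 85.9 and 92.2 CPM. Foxn1 was at 18.9 and 18.1 CPM against 12.3 and 10.4 CPM. In spinous-like cells the keratin gene Krt1 was at 5170 and 5252 CPM against 7545 and 6635 CPM, and the protease inhibitors Serpinb12 and Csta1 at 93.1 and 89.7 CPM against 181 and 152 CPM and at 78.6 and 86.9 CPM against 108 and 119.7 CPM. Alox12b, a lipoxygenase of the lipid envelope, was at 95.8 and 98.2 CPM against 128 and 119.6 CPM. The vitamin D receptor gene Vdr was at 50.7 and 50.7 CPM against 71.1 and 66 CPM. Cebpb was at 210.2 and 224 CPM against 282 and 272 CPM.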

How the data were processed

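Per the labels and the study's methods, the authors labelled cells with a BD sample multiplexing kit, loaded them on the BD Rhapsody system, separated the sample tags and deposited 1 table per mouse of estimated counts per gene and cell barcode, in which reads shared between genes were split, so that 4.55% to 4.81% of entries were not whole numbers. The submitters' processing notes name fastp 0.23.2, STAR 2.7.10a, Scanpy 1.9.1 and Seurat, and the genome build GRCm39. Cells were barcodes of 1200 or more counts with no more than 20% of them mitochondrial. Samples were grouped by the genotype in their labels. Size factors were computed with scran 1.30.0, and mice were aligned with a re-implementation of Harmony. Cells were clustered with Leiden (leidenalg 0.10.2, igraph 0.11.9, scanpy 1.11.5, Python 3.11.15) at resolutions 0.8 and 1.2, with the 40 genes held out, and named from fixed markers. Scrublet marked 3 cells in all, so doublets were in effect not removed, and leaving out the 5% of cells with the highest scores was tried as an alternative.

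Counts were summed per mouse and class, rounded to whole numbers and tested with edgeR 4.0.16 (R 4.3.3) by quasi-likelihood, with TMM scaling and filterByExpr. TMM factors were 0.9475 to 1.049 in the classes and all kept cells and 0.9226 to 1.09 in the finer clusters. In granular-like cells they were 1.049 and 1.029 in the control and 0.9475 and 0.9774 in the CerS4epi-/- mice. The printed CPM do not include these factors. A cluster entered a test with at least 20 cells per mouse. The code was tested on simulated data with known changes. Alternatives were DESeq2 1.42.0 and its size factors, no filter, other seeds and cell filters, clusters without Harmony, Lce genes summed, each mouse left out and each gene's top cell left out. The members and lists were chosen with earlier results of these data known. Values were given for every mouse for the 19 genes that are not Lce genes, the 3 Lce genes of highest mean in granular-like cells and every called member, and for at most 3 called genes of largest change per list and class. A gene that this rule would name is not reported here.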

Additional observations from a re-analysis of the deposited data

Results flagged for a closer look

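The genotype difference differed between granular-like IFE and upper follicle-like cells for 19 of the 38 genes tested, against 8.05% of all genes, by the edgeR test of the difference itself over the same 4 mice. In clusters made with Leiden seed 3 the gap was called for 8 genes, and it turned negative for Lce1a1 (-0.278), Lce1d (-0.572) and Lce1l (-0.607). The gap, as the log2 fold change in granular-like cells minus that in upper follicle-like cells, was 4.02 for Lce1i, 2.95 for Lce1k, 2.77 for Lce1j, 2.63 for Lce1l and 2.57 for Lce1g. It was 1.56 for Lce6a, 1.47 for Lce1d, 1.41 for Lce1b, 1.37 for Lce1c and 1.17 for Lce1a1. Among the other structural genes it was 1.07 for Hrnr, 1.01 for Kprp, 0.91 for Cnfn, 0.751 for Ppl, 0.706 for Flg2 and 0.67 for Lor. It was negative for Flg (-0.913), Tgm5 (-0.561) and Lce3c (-8.09), the last of which is at 0 in the upper follicle-like cells of both controls, so that its size depends on the prior count of the fit. Without the top cell of each mouse the gap was not called for Lce1k (adjusted p = 0.0738) and Lce3c (adjusted p = 0.363). With equal weights of the upper follicle-like clusters, Hrnr and Lor were higher on that side in both CerS4epi-/- mice, and Cnfn overlapped.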

How the results depend on the processing

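Of 2347 refits of called values under the alternatives, 2041 kept the call, 301 lost it and 5 turned in sign. In basal-like cells the 1 call became 2 with DESeq2 size factors, with a minimum of 2000 counts, without the highest doublet scores and with equal cell numbers, and 4 without a filter on low counts. In spinous-like cells 11 became 7 with DESeq2 and 3 without Harmony. In granular-like cells 24 became 9 without Harmony and 13 with the Lce genes summed. In upper follicle-like cells 14 became 22 without a filter. Over all kept cells 10 became 19 without a filter and 23 with a 10% mitochondrial limit. The 19 called gaps became 8 with Leiden seed 3 and 8 without Harmony, and the 71 calls summed over 9 finer clusters became 46 with DESeq2. Except where fewer genes or cells entered by construction, the cause was not tested. Signs turned without Harmony for Lor in spinous-like (-0.148) and Krtap3-2 in granular-like cells (-0.027). They turned with Leiden seed 3 for the gaps of Lce1a1 (-0.278), Lce1d (-0.572) and Lce1l (-0.607), and for Cnfn in upper follicle-like cells with equal weights (0.078).

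With each mouse left out, calls ranged from 1 to 3 in basal-like, 4 to 8 in spinous-like, 22 to 27 in granular-like and 12 to 14 in upper follicle-like cells, from 8 to 21 over all kept cells, from 16 to 21 for the gaps and from 59 to 75 over the finer clusters. The 4 came without CerS4epi-/- replicate 1, and the 3 and the 21 without control replicate 1. Replicate numbers do not pair the mice (correlations of deviations -0.0336 to 0.0776). With the replicate block 5, 12, 26, 14 and 15 genes were called in basal-like, spinous-like, granular-like, upper follicle-like and all kept cells, with 20 gaps and 85 calls over the finer clusters, and 140 of 150 called values kept their call.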
